A study of Mus musculus with 6 samples.

Results

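Methylation was examined at 9 genes that regulate neural stem and progenitor cells, Sox2, Nes, Eomes, Neurog2, Sox9, Emx2, Nr2e1, Sox4 and Id4. A gene was taken as the stretch from 1 kb upstream of its start to its end in GENCODE M21, read in the direction of transcription, and every covered cytosine in that stretch was used. The 9 genes held 703 of the 890041 covered sites of the table. The data came from reduced representation bisulfite sequencing (RRBS) of micro-dissected dentate gyrus, a method that cuts DNA at CCGG and so samples CpG-rich sequence. Each value is the percent of reads at a cytosine that were methylated. All 6 mice were female C57BL/6JRj mice aged 4.5 months. Standard cages (STD) housed 3 of them and an enriched environment (ENR), a large enclosure with tunnels and toys that mice shared, housed the other 3, for 3 months from an age of 6 weeks. The sample titles call both groups middle-aged. Each library was 1 mouse, and replicate numbers below follow the titles. ENR mice of an experiment lived together, so an effect of housing and of the shared enclosure cannot be told apart. The tissue was a mixture of cell types, in which stem and progenitor cells are few. A different share of a cell type and a different methylation level within a cell type cannot be told apart in such tissue.

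The dentate gyrus keeps neural stem cells in adult life. These cells can stay quiescent, divide to renew themselves, or give rise to intermediate progenitors and then to new granule neurons. Transcription factors of the Sox, homeobox and nuclear receptor families keep stem cells in their state, and proneural and T-box factors carry progenitors towards neurons. CpG-dense sequence around the starts of such developmental genes is usually free of DNA methylation in tissues whether or not the gene is active, and methylation is more common in gene bodies of other genes.

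To show where the measurements lie, 6 stretches of the reference sequence (GRCm38, the build of the table) are printed here. They are 4 clusters of neighbouring sites in coding or intronic sequence, each with the largest difference in its gene among clusters whose groups were separate, the most methylated stretch of Nes, and a stretch upstream of Neurog2 with almost no methylation. All are on the plus strand, which is also the strand of these genes. Each begins and ends 8 bases outside its cluster. Capitals mark the CpGs that RRBS measured on at least 1 strand, and lower case marks all other bases.
Sox9 coding, chr11:112785386-112785441: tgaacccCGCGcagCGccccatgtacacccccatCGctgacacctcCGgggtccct
Eomes intron, chr9:118479675-118479727: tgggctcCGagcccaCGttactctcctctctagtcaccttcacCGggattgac
Nes coding, chr3:87971267-87971424: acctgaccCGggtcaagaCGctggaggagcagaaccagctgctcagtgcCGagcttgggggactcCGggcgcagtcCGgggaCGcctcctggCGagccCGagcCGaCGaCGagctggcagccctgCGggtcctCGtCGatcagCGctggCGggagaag
Nes intron, chr3:87973695-87973775: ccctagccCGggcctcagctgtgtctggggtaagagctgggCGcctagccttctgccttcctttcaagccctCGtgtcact
Sox2 coding, chr3:34650570-34650659: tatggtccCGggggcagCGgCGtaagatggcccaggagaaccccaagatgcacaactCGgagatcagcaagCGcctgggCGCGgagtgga
Neurog2 upstream, chr3:127632501-127632588: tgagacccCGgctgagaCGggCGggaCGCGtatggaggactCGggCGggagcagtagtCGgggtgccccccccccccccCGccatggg
The Sox9 stretch held 5 CpGs, the Eomes stretch 3, the Nes intron stretch 3, the Sox2 stretch 7 and the Neurog2 stretch 9, and each of these CpGs was measured. In the Nes coding stretch 16 of 17 CpGs were measured. At least 1 CCGG, the cutting site of the method, lay in each of the 6 stretches.

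The gene bodies lie at chr3:34650405-34652461 (Sox2), chr3:87971078-87980451 (Nes), chr9:118478212-118486132 (Eomes), chr3:127633135-127635631 (Neurog2), chr11:112782224-112787760 (Sox9), chr19:59458372-59465357 (Emx2), chr10:42561963-42583632 (Nr2e1), chr13:28948919-28953713 (Sox4) and chr13:48261228-48266026 (Id4) of mm10. Nr2e1 and Sox4 are on the minus strand. Averaged over the whole stretch, each gene was denser in CpGs than the protein-coding median. The stretches ran from 3057 bp (Sox2) to 22670 bp (Nr2e1), with a median of 26172 bp over protein-coding genes. Density was not matched for length. CpG density was 6.54 CpGs per 100 bp in the Sox2 stretch and 6.41 in that of Neurog2, against a median of 1.38 over 16113 protein-coding genes. It was 5.02 in Sox4, 4.31 in Sox9, 4.19 in Id4, 4.11 in Emx2 and 3.17 in Eomes. The lowest were Nr2e1, at 2.33, and Nes, at 2.06, and these were still above 85.1% and 79.5% of protein-coding genes. RRBS covered a part of these CpGs. It reached 34.8% of the 224 CpGs of Neurog2 and 34.6% of the 243 of Id4, but 16.6% of the 283 of Eomes and 17.2% of the 528 of Nr2e1. Values per gene therefore describe the CpGs near CCGG. Sox2 had 39 sites, Nes 45, Eomes 50, Sox4 62, Sox9 90, Neurog2 97, Id4 102, Emx2 104 and Nr2e1 114.

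The first question was how methylated these genes are in the dentate gyrus. All 9 had a low mean methylation level. Averaged over the 6 libraries, the order ran from Eomes, at 5.91%, and Nes, at 5.90%, over Nr2e1 at 3.56%, Emx2 at 3.48%, Sox2 at 2.64%, Sox9 at 2.49%, Sox4 at 1.88% and Id4 at 1.74% to Neurog2, at 1.21%. Most neighbours in this order could not be separated. Eomes was above Nes in 3 of 6 libraries, Nr2e1 above Emx2 in 3 of 6, and Sox4 above Id4 in 3 of 6. Only the step from Nes to Nr2e1 had the same direction in every library, with a difference of 2.34 ± 1.12 percentage points (SD over 6 libraries). Neurog2 was lower than Id4 in 4 of 6 libraries. The median over all 22934 genes tested was 11.1%, and Neurog2 was lower than all but 7.81% of protein-coding genes.

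Of the 703 sites, 80.9% had a mean under 5%, compared with 54.8% of all sites of the table and 65.7% of sites in protein-coding genes. At 40.5% of the sites every library read 0%, compared with 29.8% over the table. Only 2 sites, 0.284%, had a mean over 50%, against 22.0% of all sites. These were a site in an intron of Nes and a site in an intron of Eomes. By annotation, the 136 sites in 5′ UTRs had the lowest mean, 1.38% ± 0.311 in STD and 1.6% ± 0.310 in ENR (SD, n = 3). The 109 upstream sites had 2.20% ± 0.425 and 2.07% ± 0.0871, and the 209 coding sites 2.12% ± 0.130 and 2.47% ± 0.264. The 209 intronic sites were higher, at 4.45% ± 0.729 in STD and 5.05% ± 1.03 in ENR.

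**Figure D1:**
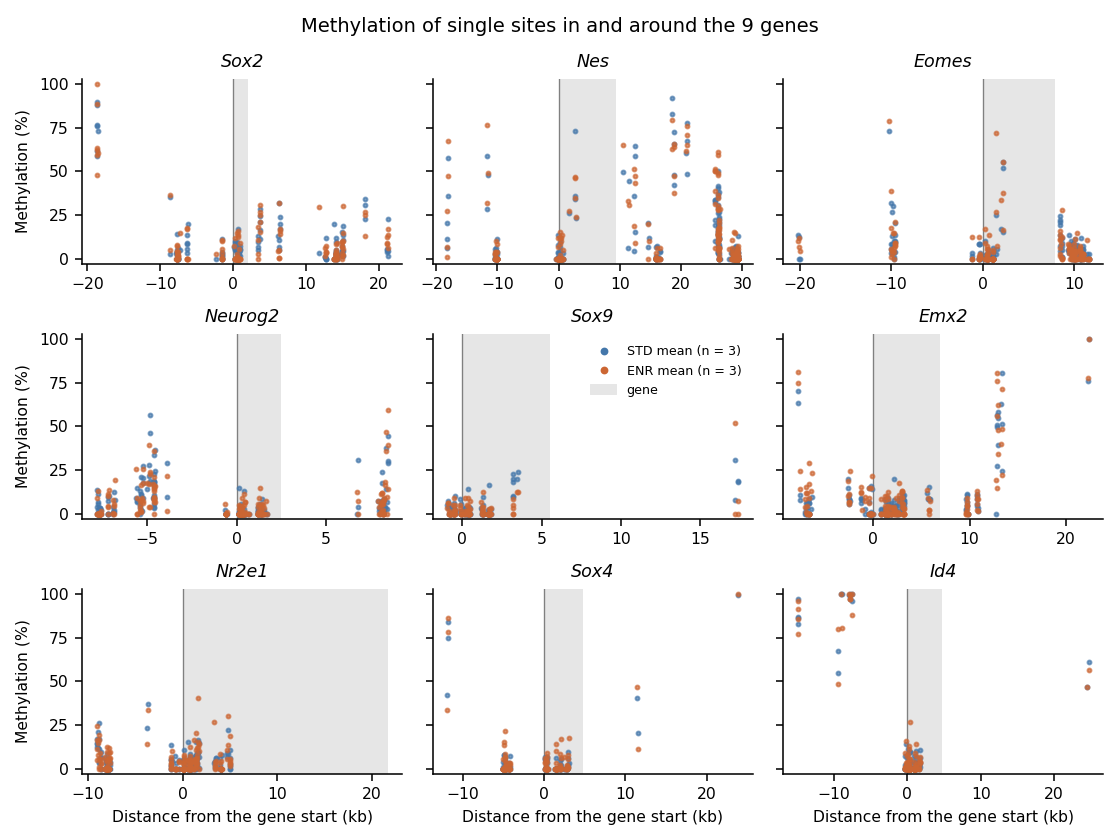
Methylation of single sites (y axis, percent) against the distance from the gene start in kb (x axis, transcription runs to the right), for each gene with 20 kb on both sides. Points are the means of 3 STD (blue) and 3 ENR (orange) libraries and the grey band is the gene. Sites near the start lie near 0% in all 9 panels, the Nes intron and an Eomes intron hold the highest sites within the genes, and the 14 sites upstream of Id4, with a mean of 89.6%, lie at the top.

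The low level was also found in the covered part of the gene bodies. That part ends early in the longer genes, since the last covered site lay 5034 bp after the start in Nr2e1, of 21670 bp, 2803 bp in Nes, of 9374 bp, and 2256 bp in Eomes, of 7921 bp. The rest of these bodies was not measured. Within 1 kb of the start, the 13204 protein-coding genes with at least 3 sites there had a median level of 1.64%, and the 9 genes spanned that median, from Neurog2 at the 8.41 percentile to Emx2 at the 78.0 percentile. Farther than 1 kb from the start, the median of 10843 protein-coding genes was 43.1%. Sox2 had no covered site there. Of the other 8 genes, 7 stayed far below that median. The median takes in sites at any distance beyond 1 kb within a gene and was not matched to the distances covered here. The last covered site lay 1718 bp after the start in Neurog2, 1805 in Id4, 3024 in Sox4, 3529 in Sox9 and 5853 in Emx2. Sox4 had 1.08% ± 0.422 in STD and 2.67% ± 0.638 in ENR, Neurog2 1.39% ± 0.702 and 2.17% ± 1.09, and Id4 2.25% ± 0.473 and 2.36% ± 0.595 (SD, n = 3). Emx2 had 3.93% ± 1.25 and 3.07% ± 0.570, Sox9 4.75% ± 2.0 and 2.24% ± 1.45, and Nr2e1 4.64% ± 1.09 and 6.58% ± 1.81. Eomes had 9.65% ± 2.77 and 12.8% ± 5.13, which placed it at the 19.2 percentile. Nes was the exception, at 38.4% ± 13.3 in STD and 35.6% ± 9.88 in ENR over 5 intronic sites, at the 44.5 percentile. Of all protein-coding genes, 11.1% were below 5% in this part.

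**Figure D2:**
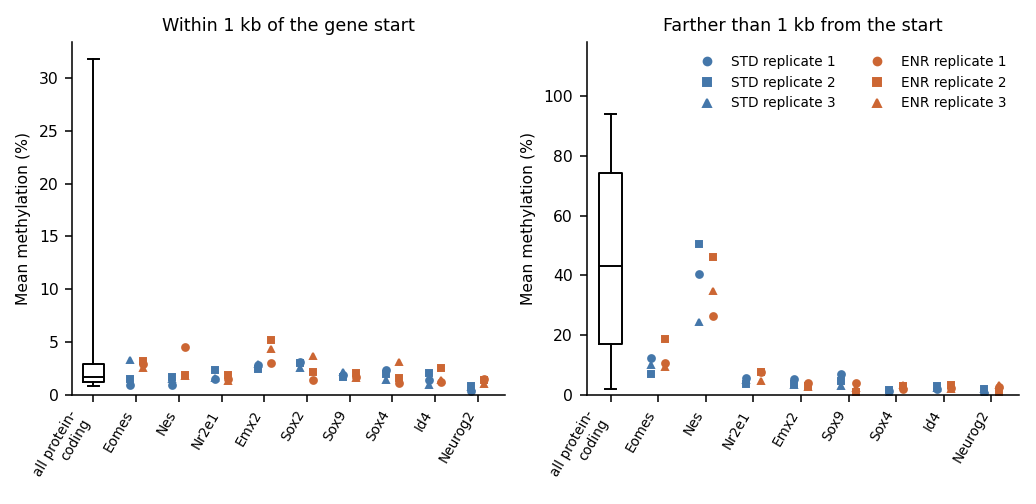
Mean methylation (percent) of the 9 genes within 1 kb of the start (left) and farther away (right), each point 1 library, beside the box of all protein-coding genes (box: quartiles with the median, whiskers: 5th and 95th percentile). On the right, 7 of 8 genes lie far below the median of 43.1% and Nes lies beside it, and the y axes of the panels differ. The box on the right is not matched for distance from the start.

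The main comparison asked whether ENR housing changed methylation of these genes. No gene passed the test. With limma over 22934 genes, 0 genes (0%) had an adjusted p-value under 0.05, and 3.86% had an unadjusted p-value under 0.05. None of the 9 genes had an unadjusted p-value under 0.05, and each had an adjusted p-value of 1.00. The ENR mean was the higher for 6 genes and the lower for 3. The groups did not overlap in 1 of the 9 genes, Neurog2, while they did not overlap in 8.47% of all genes, of which 3.04% of genes were higher and 5.43% lower in ENR. The median difference over the 9 genes was 0.692 percentage points, and over all genes -0.194. The smallest p-value an exact permutation test can give with 3 against 3 mice is 0.1, so no single comparison could pass 0.05 in that test.

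Among the factors that keep stem cells in their state, Sox2, a transcription factor with an HMG box that maintains neural stem cells, had 3.06%, 3.01% and 2.55% in STD and 1.41%, 2.11% and 3.67% in ENR. The difference was -0.475 points (95% interval -2.0 to 1.05), smaller than the SD of the ENR mice. Library ENR 3 was the highest and ENR 1 the lowest of all 6. Without ENR replicate 1 the difference was 0.0174 points, and with quantile normalization it was -0.0809 points.

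Sox9, a related factor of stem cells that astrocytes also use, had 3.86%, 2.81% and 2.46% in STD and 2.46%, 1.56% and 1.82% in ENR. The difference was -1.10 points (95% interval -2.32 to 0.121, limma p = 0.0701, exact permutation p = 0.2). The groups touched, since ENR 1 was just above STD 3. Within each replicate number the ENR library was the lower, and the fit with the replicate number as a block gave an unadjusted p of 0.0477 and an adjusted p of 0.957 in limma. The labels do not link libraries of the same number. In that fit the unadjusted limma p was 0.517 in Sox2, 0.222 in Nes, 0.264 in Eomes and 0.162 in Neurog2. It was 0.501 in Emx2, 0.230 in Nr2e1, 0.133 in Sox4 and 0.559 in Id4. Without STD 1 the difference was -0.689 points. Nr2e1, an orphan nuclear receptor that keeps stem cells dividing, had 3.44%, 2.84% and 3.16% in STD and 4.45%, 4.63% and 2.82% in ENR. ENR 3 was the lowest of all libraries, and ENR 1 and ENR 2 lay above every STD library. The difference was 0.818 points (95% interval -0.613 to 2.25), 0.488 without ENR 2 and 1.39 without ENR 3.

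Emx2, a homeobox factor that patterns the hippocampus, had 4.81%, 3.18% and 3.0% in STD and 3.54%, 3.37% and 2.97% in ENR. STD 1 alone stood above the rest, and without it the difference of -0.371 points became 0.201. Id4, a helix-loop-helix protein that binds and inhibits proneural factors and helps keep stem cells quiescent, had 1.46%, 2.22% and 1.21% in STD and 1.42%, 2.62% and 1.53% in ENR. Replicate 2 was the highest in both groups, and the difference was 0.225 points (95% interval -0.941 to 1.39), which ran from -0.158 to 0.518 with a library left out. With quantile normalization this difference was 0.528 points. Nes encodes nestin, the intermediate filament protein by which these cells are recognised. Its means were 5.28%, 7.07% and 3.96% in STD and 6.91%, 6.76% and 5.42% in ENR, and the groups overlapped (difference 0.925 points, 95% interval -1.30 to 3.15). It was 0.188 points without STD 3 and 1.74 without STD 2.

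Among the genes of progenitors and young neurons, Neurog2, a proneural factor that starts neuronal differentiation, had 0.419%, 1.13% and 1.05% in STD and 1.78%, 1.23% and 1.66% in ENR. All 3 ENR libraries were above all 3 STD libraries, ENR 2 by the least. The difference was 0.692 points (95% interval -0.151 to 1.53, limma p = 0.0920, exact permutation p = 0.1). Sox4, which acts in the early steps of neuronal differentiation, had 1.63%, 1.58% and 0.897% in STD and 1.63%, 2.48% and 3.08% in ENR. The difference of 1.03 points (95% interval -0.140 to 2.19) had a limma p of 0.0751, and ENR 1 was between STD 1 and STD 2. Eomes, a T-box factor that marks intermediate progenitors, had 5.49%, 3.57% and 5.90% in STD and 5.89%, 9.38% and 5.25% in ENR. Library ENR 2 stood apart and the other ENR libraries lay among the STD libraries, so that the difference was 1.86 points (95% interval -1.17 to 4.88) with ENR 2 and 0.586 without it. It was 1.15 without STD 2.

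**Figure D3:**
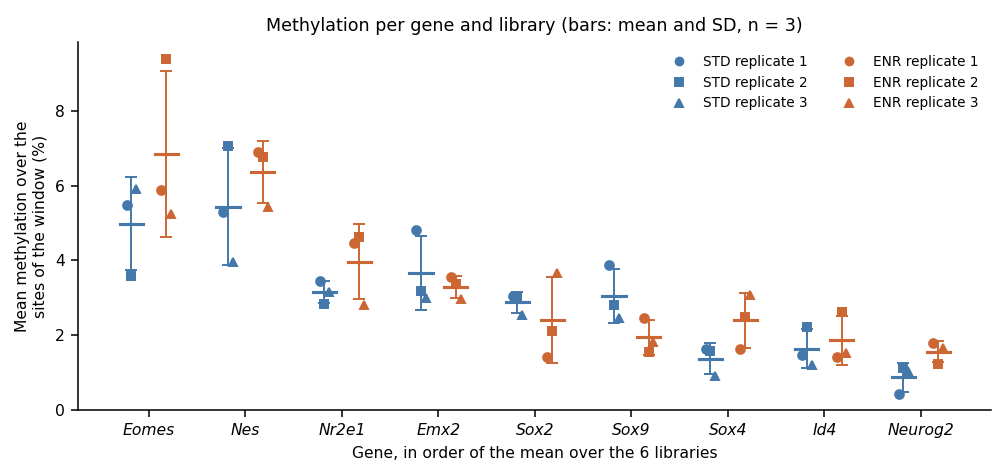
Mean methylation over the sites of each gene (y axis, percent), each point 1 library, with the mean and SD of 3 STD (blue) and 3 ENR (orange) mice. Genes are in the order of their level, and the groups overlap in all but Neurog2.

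Methylation near the starts and in the rest of the genes was compared next. Within 1 kb of the start, the groups did not overlap in 3 of 9 genes, Nes, Neurog2 and Emx2, all higher in ENR, whereas 9.49% of 17950 genes had groups that did not overlap there. Nes had 0.881%, 1.63% and 1.43% in STD and 4.48%, 1.86% and 1.77% in ENR. ENR 1 was high, and without it the difference of 1.39 points was 0.50. Emx2 had 2.77%, 2.39% and 2.92% in STD and 2.95%, 5.13% and 4.34% in ENR, a difference of 1.45 points (95% interval -0.317 to 3.22), although over the whole gene Emx2 was lower in ENR. The Emx2 difference was 0.954 points without ENR 2, 0.876 with a limit of 500 bp and 0.772 with a limit of 2 kb. Neurog2 had a difference of 0.650 points (95% interval -0.0542 to 1.35). Farther than 1 kb, the groups did not overlap in Sox4 alone of 8 genes, against 7.91% of 14012 genes. Its values of 1.25%, 1.40% and 0.602% in STD and 1.94%, 3.01% and 3.07% in ENR differed by 1.59 points (95% interval 0.220 to 2.96, limma p = 0.0292, exact permutation p = 0.1). None of these passed after adjustment over all genes with limma, where the adjusted p-values were 0.993 near the start and 1.00 farther away, and 0% of genes passed in either part. Each of the 4 had an exact permutation p of 0.1, the smallest possible with n = 3. Which genes were separate depended on the distance. Near the start, with a limit of 500 bp they were Nes, Neurog2 and Sox2, the last of these lower in ENR (difference -1.64 points), and with a limit of 2 kb they were Eomes, Neurog2 and Sox4. In the farther part, the groups of Sox4 overlapped with a limit of 2 kb.

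At the level of single sites, the study's limit of a difference over 25 percentage points was kept. Of all 890041 sites, 1.94% differed by more, and 2 of the 703 sites (0.284%) did. None of the sites passed with limma, in which 0 of 615152 varying sites (0%) were called and 2.68% had an unadjusted p-value under 0.05. Among the 418 sites of the 9 genes that varied, 4 (0.957%) had one. At 12 of these 418 sites (2.87%) the values of the groups were separate, of which 7 were higher and 5 lower in ENR, against 5.77% of all varying sites. Both shares were below those over all varying sites. The comparisons with all sites were not matched for level, and 80.9% of the 703 sites had a mean under 5%, against 54.8% of all sites. Of the 37 sites that differed by more than 10 points, 26 were higher (3.70% of the 703) and 11 lower (1.56%) in ENR, where 6.03% of all sites were higher and 7.94% lower by that much. Sites high in a single library were more frequent in the ENR libraries.

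The site with the largest difference lay in an intron of Eomes, 1479 bp after the start, at position 118479691 of chromosome 9 on the minus strand. It is the second capital pair of the printed Eomes stretch. It was methylated at 28.0%, 22.6% and 24.3% in STD and at 60%, 100% and 55.6% in ENR. The 3 STD mice lay close together and all ENR mice were above them, with a difference of 46.9 points (limma p = 0.0203, adjusted p = 0.852, exact permutation p = 0.1). The same cytosine differed by 32.8 points without ENR 2. The other site over 25 points was at position 87973767 of chromosome 3, in the intron of Nes, the last capital pair of the printed Nes intron stretch. Its values were 82.4%, 88.9% and 48.0% in STD and 0%, 54.5% and 50% in ENR. The groups overlapped, and the 2 neighbouring CpGs of the stretch, at 34.0% and 35.9% in STD, were 12.1 and 10.6 points higher in ENR. Library ENR 1, at 0% here, read 25.9% and 43.5% at these neighbours.

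In each gene, the site with the largest difference among those whose groups did not overlap was taken. There was none in Sox2, Nes or Id4. In Sox9 it was a coding cytosine at position 112785396 of chromosome 11, with 19.7%, 21.9% and 12.8% in STD and 0% in all ENR libraries (difference -18.1 points, limma p = 0.00510, adjusted p = 0.852, exact permutation p = 0.1). In Emx2 it was an intronic cytosine at position 59461552 of chromosome 19, with 14.5%, 10.6% and 6.00% in STD and 0% in each ENR library (difference -10.4 points, limma p = 0.0119, exact permutation p = 0.1). In Sox4 a cytosine of the 3′ UTR, at position 28951684 of chromosome 13, had 8.18%, 8.33% and 0% in STD and 13.6%, 22.2% and 15.5% in ENR (difference 11.6 points, limma p = 0.0924, exact permutation p = 0.1). An intronic cytosine of Nr2e1, at position 42582089 of chromosome 10, had 0%, 0.840% and 5.31% in STD and 24.6%, 5.49% and 5.75% in ENR. STD 3 and ENR 2 were close to each other, and the difference of 9.90 points was 3.57 without ENR 1. In Neurog2, a coding cytosine at position 127634503 of chromosome 3 read 0% in all STD libraries and 2.67%, 4.29% and 3.75% in ENR. Averaged with the other strand of its CpG, the difference of 3.57 points was 0.890. The reads behind a value of 0% are unknown beyond the authors' minimum of 10. Choosing sites with separate groups fixed their exact permutation p at 0.1, and their unadjusted limma p-values do not account for this choice.

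**Figure D4:**
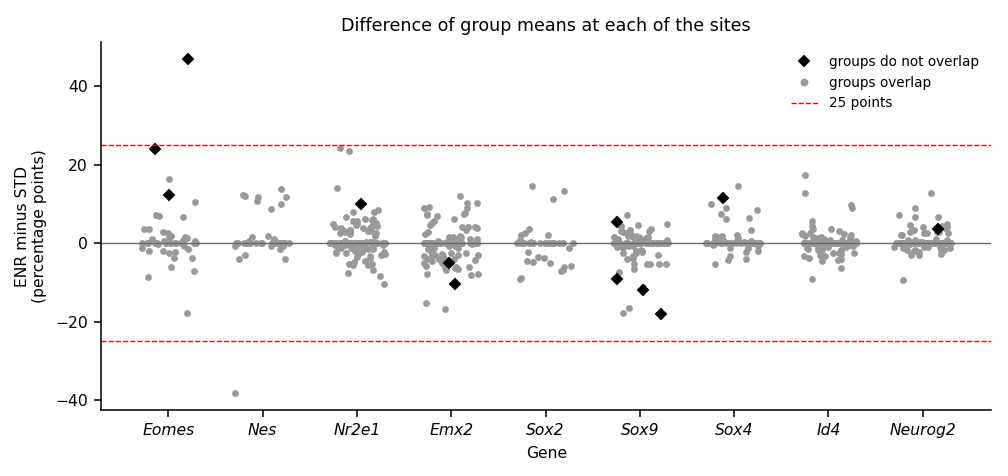
Difference of group means, ENR minus STD, in percentage points (y axis) at each of the 703 sites, by gene. Black diamonds are the 12 sites whose groups do not overlap, grey points the others, and the dashed lines mark 25 points, which 1 site of Eomes and 1 of Nes pass.

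Neighbouring sites share sequencing fragments, so sites at most 100 bp apart were also averaged. The 9 genes held 50 such clusters of at least 3 sites, of which 30 were higher and 20 lower in ENR, while 35167 of all clusters were higher and 41538 lower. With limma, 0 of 76712 clusters (0%) passed and 4.1% had an unadjusted p-value under 0.05, against 4 of the 50 (8%). The groups did not overlap in 8 of the 50 (16%), of which 5 were higher and 3 lower in ENR, and in 8.87% of all clusters. No such cluster was found in Nr2e1 or Id4. The adjusted p-values of the 50 were 0.998 or above.

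The printed Sox9 stretch held the cluster with the lowest p-value of these genes. It lies in coding sequence 3170 to 3209 bp after the start, and its 5 sites were all read on the minus strand, so that they may come from the same fragments. The cluster mean was 22.7%, 14.0% and 11.5% in STD and 2.91%, 3.03% and 3.91% in ENR. The lowest STD mouse was thus well above the highest ENR mouse, with a difference of -12.8 points (95% interval -20.0 to -5.57, limma p = 0.00401, exact permutation p = 0.1). At 3 of the 5 sites the groups did not overlap. The other 6 clusters of Sox9 had differences between -0.999 and 0.725 points.

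The printed Eomes stretch had cluster means of 9.33%, 15.7% and 8.11% in STD and 22.9%, 53.3% and 29.4% in ENR. The ENR mice were all higher, by 24.1 points on average (95% interval 3.24 to 45.1, limma p = 0.0292, exact permutation p = 0.1) and by 15.1 points without ENR 2. The first 2 of its 3 CpGs carried the difference. A second cluster of Eomes, of 17 sites in the 5′ UTR and coding sequence, had 0.654%, 1.09% and 0.954% in STD and 1.62%, 3.28% and 2.36% in ENR.

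In the printed Nes coding stretch, 18 sites averaged 0.878%, 1.74% and 0.830% in STD and 5.10%, 3.77% and 2.99% in ENR (difference 2.80 points, 95% interval 0.901 to 4.71, limma p = 0.0101, exact permutation p = 0.1). The groups did not overlap for the mean, but no single site of the stretch had groups that did not overlap. Part of the ENR mean came from sites that were methylated in 1 library and at 0% in the other 5. These were a site at 36.8% and a site at 35.0% in ENR 1, and a site at 35.3% in ENR 3. In the printed Sox2 stretch, the 7 sites averaged 6.35%, 4.44% and 4.78% in STD and 3.46%, 1.68% and 3.01% in ENR (difference -2.47 points, limma p = 0.0390, exact permutation p = 0.1). The other Sox2 cluster, of 32 sites, differed by -0.0383 points.

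The other 3 clusters whose groups did not overlap were of small level or few sites. In Neurog2, 55 sites of the 5′ UTR and intron had 0.410%, 0.904% and 0.815% in STD and 1.48%, 1.58% and 1.18% in ENR. In Sox4, 11 sites at the border of coding sequence and 3′ UTR had 1.93%, 0.976% and 1.26% in STD and 2.0%, 3.66% and 3.88% in ENR. The difference of 1.79 points was 0.510 when sites at most 50 bp apart were joined. In Emx2, 4 sites of the 3′ UTR had 18.8%, 5.21% and 6.25% in STD and 0%, 3.85% and 4.41% in ENR, and the difference of -7.32 points was -2.98 without STD 1. In contrast, the 9 sites of the printed Neurog2 upstream stretch averaged 0%, 0.601% and 0% in STD and 1.74%, 0.278% and 0% in ENR.

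**Figure D5:**
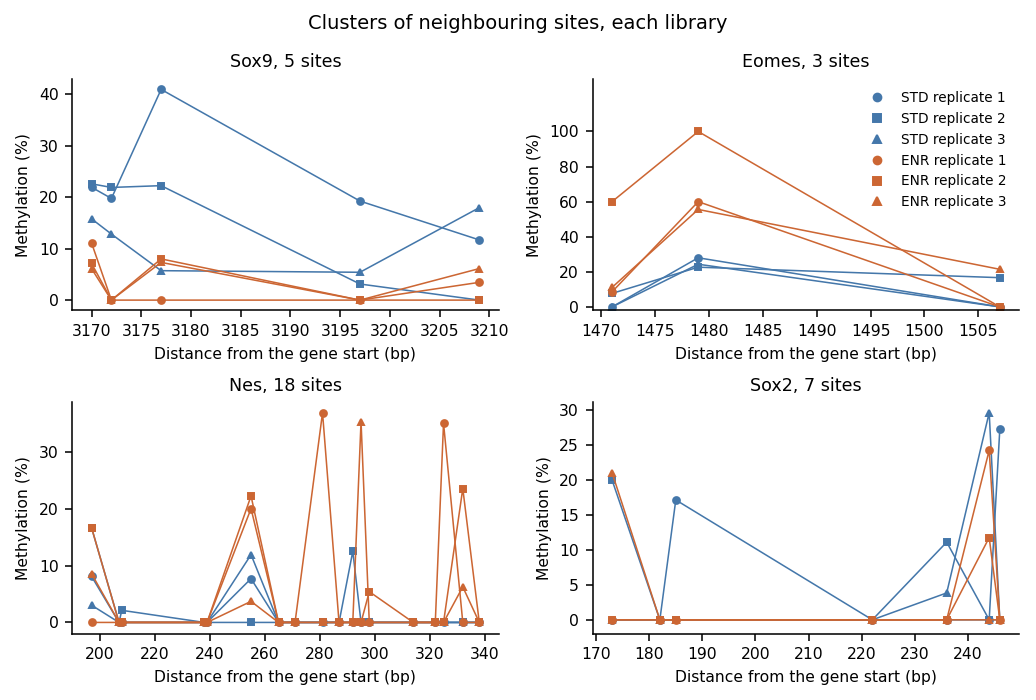
Methylation (y axis, percent) at each site of 4 clusters, against the distance from the gene start in bp, with 1 line per library (STD blue, ENR orange). In Sox9 the STD lines lie above the ENR lines at most sites, in Eomes the ENR lines peak at the middle site, and in Nes and Sox2 many sites are at 0% in most libraries and some are high in 1 to 3 libraries.

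Sites that were high in 1 library alone were counted because several values above rest on them. A site was counted when 1 library was over 20% and each of the other 5 was under 5%. There were 23 among the 703 sites (3.27%), and 1.66% of all sites of the table met the same limits. Sox2 and Nes had 4 each, Emx2 4, Id4 and Eomes 3 each, Nr2e1 2, and Neurog2, Sox9 and Sox4 1 each. ENR libraries held 4, 6 and 5 of them and STD libraries 3, 2 and 3, and over all sites each ENR library also held more than each STD library. Agreement between libraries over the 703 sites was low, with Pearson's r across sites between 0.314 and 0.562, against 0.90 to 0.951 over all sites, whose levels span the whole range. Where both strands of a CpG were measured, in 111 of 592 CpGs, the strands differed by 3.20 points on average, and by 9.26 points at the 18 CpGs with a mean of at least 5%.

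As a wider view of the pathway, 40 further genes of stem cells, progenitors and neuroblasts were listed, and 37 had at least 3 sites. Their median level was 4.34%, the ENR mean was higher in 21 and lower in 16, and 0 passed with limma. The Notch targets Hes1, at 1.73%, and Hes5, at 1.90%, were as low as the 9 genes, while Sox5 reached 52.3%. The groups did not overlap in 1 of the 37, a smaller share than the 8.47% of all genes. This was Dcx, which encodes doublecortin, a microtubule protein of newborn neurons. Its 6 sites, on chromosome X, had 50.3%, 46.0% and 52.5% in STD and 34.8%, 40.4% and 36.5% in ENR (difference -12.4 points, 95% interval -19.8 to -4.97, limma p = 0.00610, adjusted p = 1.00, exact permutation p = 0.1).

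The mixture of cell types was viewed through genes that mark other cells of the tissue. Of 18 marker genes tested, 4 were higher and 14 lower in ENR, and 0 passed. All 5 astrocyte genes were lower in ENR, with a median difference of -3.06 points, in a table where 13221 of 22934 genes were lower in ENR, and their levels ran from 19.98% to 96.3%. Of the oligodendrocyte genes 2 were higher and 3 lower, of the microglial genes 1 and 3, and of the granule neuron genes 1 and 3. The median differences of these sets were -0.0461, -1.18 and -0.472 points. The groups did not overlap in 3 of the 18 marker genes, each lower in ENR, while over all genes 8.47% did not overlap and 5.43% were so and lower in ENR. Aldh1l1, an astrocyte enzyme, had 38.7%, 38.5% and 35.7% in STD and 35.2%, 35.3% and 31.4% in ENR. Slc1a3, a glutamate transporter of astrocytes, had 27.0%, 29.7% and 27.0% in STD and 26.5%, 26.7% and 23.2% in ENR. Calb1, a calcium-binding protein of granule neurons, had 2.91%, 1.41% and 1.91% in STD and 0.446%, 0.962% and 1.34% in ENR. The part that the mixture of cells had in the values of the 9 genes was not tested.

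Over all 890041 sites the 6 libraries had means between 21.3% and 24.3%, and replicate 3 was the lowest in both groups. Over the 703 sites the means were 3.08%, 2.78% and 2.49% in STD and 3.10%, 3.43% and 2.78% in ENR, so ENR 2 was the highest and STD 3 the lowest. Some of the measured sequence also belongs to other genes. Sox2 lies within the noncoding gene Sox2ot, antisense or noncoding transcripts overlap the stretches of Eomes (Gm33460), Sox9 (BC006965), Emx2 (Emx2os), Sox4 (Gm26735) and Id4 (A330033J07Rik and Gm49291), and the start of Ostm1 lies upstream of Nr2e1. Methylation of this sequence cannot be assigned to either gene.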

How the data were processed

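RRBS libraries of dentate gyrus DNA from 3 STD and 3 ENR mice were used. Per the labels and the study's methods, the authors trimmed reads with Trim Galore (0.4.0 with cutadapt 1.8.1 in the submitters' processing notes), mapped them to mm10 with Bismark (0.16.1) and used methylKit (1.5.2) to keep cytosines with at least 10 reads that were covered in all libraries. The methods state other versions of Trim Galore and Bismark. The deposited values are the percent of reads methylated per cytosine, for plus and minus strand separately. Read numbers were not used here, so depth is unknown, no interval for a single value is given, and the study's test on reads was replaced by tests between mice. All 703 sites were a CpG of GRCm38.

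Means per gene (at least 3 sites), per cluster (gaps of at most 100 bp, at least 3 sites) and per site entered linear models in limma 3.58.1 (R 4.3.3), moderated with a trend of the variance, with Benjamini-Hochberg adjustment over all features of the table. The 95% intervals come from these fits. The procedure was tested on simulated data. Single values were compared with an exact permutation test, two-sided, which has 20 regroupings of the libraries. The test of parts near and far from the start with limma over all genes was added after seeing the data. The genes, lists and tests were chosen with earlier results of these data known. All 9 genes were named. In each gene, the site and the cluster with the largest difference among those whose groups did not overlap were named, as were genes of the wider and marker lists with groups that did not overlap. Items picked for separate groups have an exact permutation p of 0.1 by that choice alone. Their unadjusted limma p-values and intervals do not account for it. Other sites were named after their values were seen. Deviations from the group means over 22934 genes correlated between same-numbered STD and ENR libraries at 0.157, 0.130 and 0.322. Numbers 1 and 2 crossed correlated at 0.121 and 0.109, and the labels name no shared batch. The main fits took no account of the replicate number, which entered as a block in an alternative fit only. The window, the strands, filters on sites and levels, the definition of clusters, the scale of the test, normalization, the model of the variance, single libraries and the replicate number as a block were varied.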

Additional observations from a re-analysis of the deposited data

How the results depend on the processing

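No alternative gave a call among the 9 genes, their 703 sites or their clusters, nor in the wider list or the marker genes. The smallest adjusted p-value of a member gene was 0.929, without ENR replicate 3. The fit with the replicate number as a block gave 0 calls for genes, sites and clusters, like the fit without it, and so changed no call. Of 322 alternative values of single genes, sites, clusters and parts of genes, 308 kept their direction, 9 were at 0 because the median over sites was 0 in each gene, and 5 reversed. These were Sox2 without ENR replicate 1 (0.0174 points, range with a library left out -1.11 to 0.0174), Nes over sites of 20 to 80 percent (-2.80 points, the 5 intronic sites), Emx2 with quantile normalization (0.0594) and without STD replicate 1 (0.201, range -0.703 to 0.201), and Id4 without ENR replicate 2 (-0.158, range -0.158 to 0.518). The cause was not tested. Over sites of 20 to 80 percent the difference was also 12.3 points in Eomes and 16.2 in Nr2e1. These values rested on few sites. In Eomes they were 3 sites of 20 to 50 percent and 1 over 50 percent. In Nr2e1 they were 2 sites of 20 to 50 percent. The groups overlapped in both genes over these sites. Over the gene body only the difference was -0.776 in Emx2 and 1.57 in Nes. The Sox4 cluster difference of 1.79 points was 0.510 with a gap of 50 bp, the Emx2 cluster difference was -4.45 with a gap of 200 bp, and the Neurog2 site difference of 3.57 was 0.890 with strands averaged. The number of genes whose groups did not overlap, 1, was 3 with quantile normalization, 0 with medians and 0 over sites of 20 to 80 percent, and between 1 and 3 with a library left out. The 2 sites over 25 points became 5 with a limit of 20 points, 1 with a limit of 40 points and 5 with group medians, and between 3 and 6 with a library left out. With a library left out, 27 to 39 sites and 11 to 14 clusters had groups that did not overlap, where fewer libraries have to be separated. Depth per site is unknown, and 3 mice a group limited what could be called.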

Other observations

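The sequence around the genes differed in level from the genes themselves. In the 20 kb before the Id4 stretch, all 14 covered sites were over 50% and their mean was 89.6%, the nearest of them 6543 bp before the stretch, while the 102 sites of Id4 averaged 1.74%. In the same distance before Nr2e1, no covered site of 64 was over 50% and the mean was 5.03%. The 80 sites in the 20 kb after Eomes also held none over 50%, with a mean of 4.19%, below the 5.91% of Eomes itself. After Nes, 13 of 156 sites were over 50%, the first of them 1188 bp beyond its end, and after Emx2 8 of 31 were, from 5807 bp on. In the 20 kb before Sox2, 7 of 42 sites were over 50%, the nearest 17596 bp away. The 20 kb before Sox9 and after Nr2e1 held no covered site. These flanks were compared by level only, and no test between the groups was made on them.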
